A study of Mus musculus with 9 samples.

Results

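The nuclear-encoded subunits of the mitochondrial respiratory chain were followed through kidney RNA of mice that had all received AngII. AngII stands for angiotensin II, a hormone that constricts vessels and makes the kidney retain salt. The 84 subunit genes were taken by symbol from the 32593 genes of the deposited table: protein-coding genes named Nduf (a, b, c, s or v with a number), Sdha to Sdhd, Uqcr, Cyc1, Cox4 to Cox8 or Atp5. They comprised 35 genes of complex I, 4 of complex II, 9 of complex III, 19 of complex IV and 17 of complex V, with Ndufa4 and Ndufa4l2 counted under complex IV. Assembly factors and Ndufab1 fall outside this naming rule.

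RNA-seq was done on 3 libraries in each of 3 groups, and all groups received AngII. The AngII group had the genotype Tmemfl/fl without Cre, the CDH16KO-AngII group CDH16 Cre+/Tmemfl/fl, and the GRPR-AngII group CDH16 Cre+/GRPRfl/fl. Cdh16 encodes a cadherin of kidney tubule epithelium, so this Cre is meant to act in tubule cells and not in vessels, stroma or blood cells. By these genotypes the floxed gene of CDH16KO-AngII is Tmem, and CDH16 names the Cre. CDH16KO-AngII and AngII differ in the presence of Cre, so Cre itself and its action on the floxed Tmem allele cannot be told apart. GRPR-AngII and AngII differ in Cre and in the floxed allele, which cannot be told apart here either. The title of the series places the work in hypertension-associated chronic kidney disease and names STING and ACSL4. The labels used here give no age, sex or dose.

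The respiratory chain moves electrons from NADH (complex I) and succinate (complex II) through ubiquinone, complex III and cytochrome c to oxygen at complex IV. The proton gradient that complexes I, III and IV build drives ATP synthesis by complex V. Most subunits are coded in the nucleus and imported, and a small core set is coded by mitochondrial DNA. Proximal tubule cells of the kidney are rich in mitochondria and rely on this pathway for the transport of sodium and solutes. Among the transcription factors known for binding promoters of these genes are NRF1, GABP (an ETS factor) and YY1.

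Promoters were examined first, for letters that some of the genes share beyond their names. RefSeq promoter windows (GRCm38.p6, 250 bases before to 50 after the start) matched 68 of the 84 genes. The NRF1 letters GCGCATGCG, read on both strands, occurred in 8 of these 68 windows (11.8%), beside 1.95% of all promoters in the table and 4.05% of the promoters of genes tested here. The YY1 letters AAGATGGCG occurred in 7 windows (10.3%, beside 1.64% of all promoters and 3.77% of those of tested genes). The ETS letters CCGGAAGT occurred in 5 (7.35%), beside 4.31% of all promoters and 9.42% of those of tested genes. Promoters of mitochondrial ribosomal proteins, another nuclear-encoded mitochondrial group, held the NRF1 letters in 10.1% and the YY1 letters in 11.6% of 69 windows. Of the 7 YY1 matches 5 lay among the 31 complex I windows, and the 3 complex II windows held none of the motifs. The match is a description of letters and not of binding.

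The NRF1 letters are in capitals in 4 upstream stretches from these windows, chosen because they hold these letters. Where the letters read on both strands the capitals span both matches. They are printed 5′ to 3′ on the strand of the gene.
Atp5g2 (chr15:102671048-102671167, minus strand): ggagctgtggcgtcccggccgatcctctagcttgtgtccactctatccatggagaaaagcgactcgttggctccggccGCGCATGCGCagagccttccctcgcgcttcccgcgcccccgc
Atp5k (chr5:108434400-108434519, minus strand): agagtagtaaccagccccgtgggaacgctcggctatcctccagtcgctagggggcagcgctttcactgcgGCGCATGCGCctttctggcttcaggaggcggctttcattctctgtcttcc
Ndufa11 (chr17:56717642-56717761, plus strand): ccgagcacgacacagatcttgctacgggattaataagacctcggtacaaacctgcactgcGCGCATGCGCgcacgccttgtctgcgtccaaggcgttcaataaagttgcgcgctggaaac
Ndufa8 (chr2:36049339-36049458, minus strand): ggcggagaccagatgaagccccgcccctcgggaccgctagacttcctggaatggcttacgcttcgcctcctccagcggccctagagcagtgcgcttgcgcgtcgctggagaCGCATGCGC

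A second pair of sequences shows how close a subunit gene and a copy of it can be, because the counts of both are compared between groups later. Ndufa12 encodes an accessory subunit of complex I and lies at chr10:94198720-94221443 (plus strand). Its processed pseudogene Ndufa12-ps (chr5:130188395-130188796, plus strand) is a separate row of the table. The 402 bases of Ndufa12-ps align without a gap to coding positions 37 to 438 of Ndufa12 (counted from 1 at the coding start) with 2 differences, A135G and T414C. The Ndufa12 transcript has 1110 bases, so reads from the rest of it have no counterpart in the copy's annotated bases. Stretches of 50 coding bases around each difference follow, with the base that differs in capitals.
Ndufa12 positions 111 to 160: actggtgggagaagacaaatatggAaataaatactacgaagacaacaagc
Ndufa12-ps, same positions: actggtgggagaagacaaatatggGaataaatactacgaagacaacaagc
Ndufa12 positions 389 to 438: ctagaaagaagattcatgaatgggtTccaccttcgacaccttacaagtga
Ndufa12-ps, same positions: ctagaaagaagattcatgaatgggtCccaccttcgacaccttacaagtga

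Library totals ranged from 40731748 to 60449117 counts, and the subunit genes took 2.01% to 2.68% of them. Their mean share of counts was 2.41% ± 0.33 for AngII, 2.24% ± 0.297 for CDH16KO-AngII and 2.39% ± 0.163 for GRPR-AngII (SD, n = 3), and the groups overlapped. Genes coded by mitochondrial DNA took 16.1% to 26.4% of the counts, and the library where they took most (CDH16KO-AngII 3, 26.4%) had the smallest share for the nuclear subunits (2.01%). Both are shares of the same total, so a larger share of one lowers the other. Over the counts outside mitochondrial DNA the subunit shares were 2.96% ± 0.326, 2.86% ± 0.182 and 3.02% ± 0.126 in the same order of groups. On that scale CDH16KO-AngII 3 stood at 2.72%, and the smallest share was that of AngII 1 (2.60%). One library stood apart. In AngII 1, 41 of the 82 tested subunit genes had their lowest level of the 9 libraries, and the medians and named genes that it moves most are given with and without it. All 15 proximal tubule markers were present in every library, with a summed FPKM of 26180 to 46551. Most of that sum was Kap alone, at 22872 to 42240. Nothing in the labels ties each library to its own animal, so p-values measure only the spread between these libraries, which may be technical.

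All but 2 of the subunit genes passed the filter for testing, which kept genes that reached an FPKM of 1 in 3 or more libraries. FPKM is the deposited level, a fragment count scaled to gene model length and library depth. Cox8b and Cox7b2, the muscle and testis forms of 2 complex IV subunits, were at 0 in 7 of 9 libraries each and did not pass. Median FPKM over tested genes was 97.0 in complex I, 84.9 in complex II, 182 in complex III, 180 in complex IV and 139 in complex V. Complex IV had the widest range, from 0.98 (Cox4i2) to 982 (Cox6a1), and complex II the narrowest. Complex I ran from 12.1 (Ndufs1) to 303.5 (Ndufa1), complex II from 66.3 (Sdha) to 130 (Sdhb), complex III from 83.1 (Uqcrc1) to 426 (Uqcr10), and complex V from 31.3 (Atp5l) to 294 (Atp5a1).

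**Figure D1:**
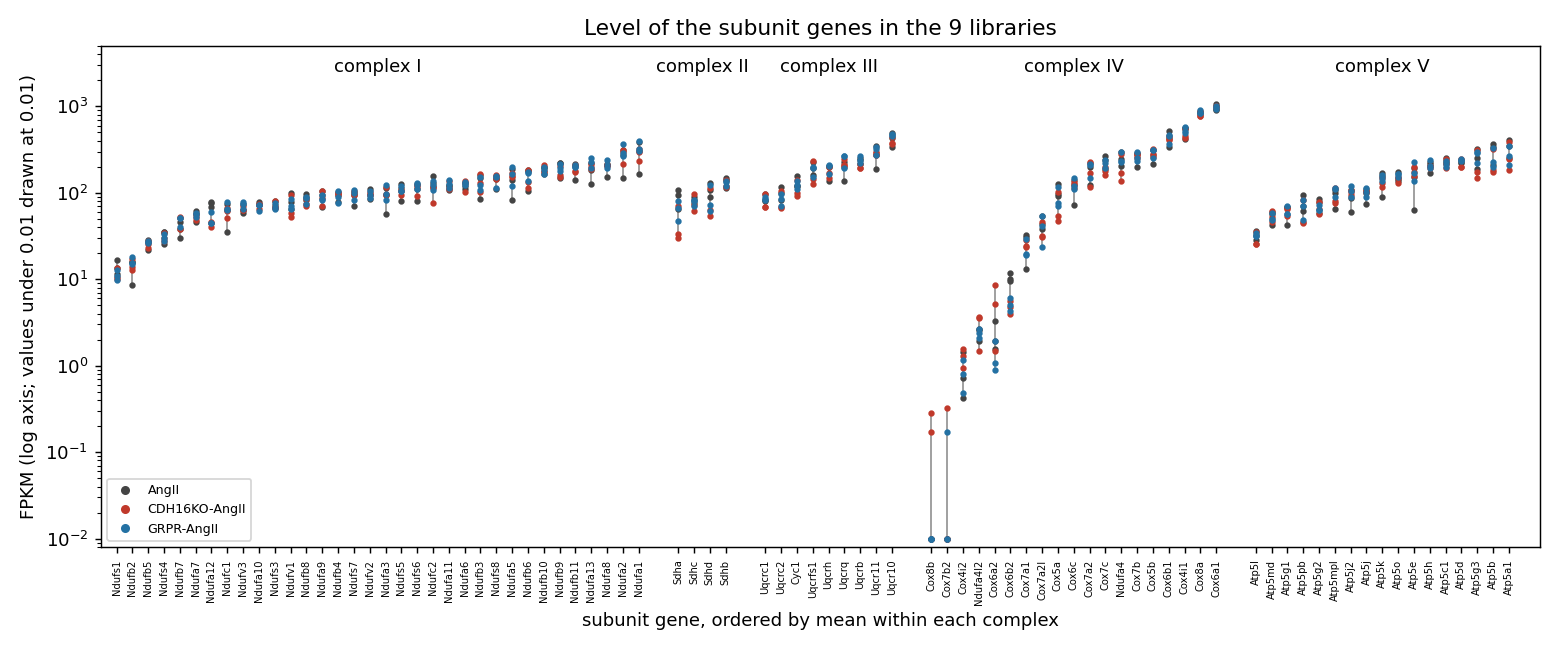
Level of the subunit genes reported by name, with FPKM on a log axis and 1 point per library coloured by group and values of 0 drawn at 0.01; genes are ordered by mean within each complex and a grey line joins the lowest and highest library. Most genes lie between 10 and 1000 FPKM in all libraries. The tail below 10 holds complex IV isoforms only, apart from Ndufs1 (9.98 in CDH16KO-AngII 3, 9.81 in GRPR-AngII 3) and Ndufb2 (8.53 in AngII 1).

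FPKM depends on the length of the gene model. The lengths behind the deposited FPKM tracked the union of all annotated exons, and that union exceeds the principal transcript 11.84-fold for Atp5l (6443 against 544 bases) and 7.26-fold for Ndufb7. Rescaled to CPM (counts scaled to library size with TMM factors) per kilobase of the principal transcript, Atp5l stood at 445 and Ndufb7 at 388. On that scale the medians were 208 in complex I, 110 in complex II, 315 in complex III, 379 in complex IV and 430 in complex V. Ndufs1, the largest core subunit of complex I, stood at 44.3, beside 113 for Sdha and 250 for Uqcrc1.

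The question put by the design is whether any of these genes differed between the groups. None passed the edgeR threshold (Benjamini-Hochberg adjusted p under 0.05) in any of the 3 comparisons. The background was 0.168% of 12507 genes for CDH16KO-AngII against AngII, 0% for GRPR-AngII against AngII and 0.144% for GRPR-AngII against CDH16KO-AngII. The lowest adjusted p among the subunit genes was 0.116, 0.54 and 0.438 in that order. At an unadjusted p under 0.05 there were 5, 2 and 3 subunit genes of 82, beside 8.45%, 6.74% and 6.24% of all genes tested. DESeq2 called 2, 1 and 0 subunit genes, namely Cox6b2 and Ndufa12, then Cox6b2, where it called 1.68%, 0.36% and 1.4% of all genes tested. With limma 1 (Cox6b2), 0 and 0 were called, beside 0.2%, 0% and 0.136% of all genes on log2(FPKM + 1) and 0.168%, 0% and 0.12% on log2(FPKM + 0.1). A 95% confidence interval within a 2-fold change in either direction was reached by 72, 77 and 78 of the 82 genes, and one within 1.5-fold by 46, 44 and 49. These comparisons share groups, so their values are not independent of each other.

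Beside this, the median of the whole set lay above 0 in both comparisons with GRPR-AngII. It was close to that of all genes in CDH16KO-AngII against AngII. In CDH16KO-AngII against AngII the median log2 fold change of the 82 genes was −0.0026 (all genes tested 0.012), and 41 lay above 0 (background 51.9%). Against the same controls GRPR-AngII had a median of 0.0954 (all genes −0.0063) with 58 above 0 (background 49%). GRPR-AngII against CDH16KO-AngII gave a median of 0.128 (all genes −0.0136) with 72 above 0 (background 47.4%). The higher median in GRPR-AngII against CDH16KO-AngII was not particular to the subunit genes. In that comparison cytosolic ribosomal proteins had 0.141 with 76 of 90 above 0, and mitochondrial ribosomal proteins 0.0841 with 58 of 78. Without library AngII 1 the 2 medians of the subunit genes against AngII were −0.116 with 21 above 0 and −0.0089 with 39 above 0. By complex, the medians without AngII 1 were −0.05 (I), −0.30 (II), −0.16 (III), −0.09 (IV) and −0.10 (V) in CDH16KO-AngII, and 0.02, −0.18, 0.03, −0.03 and −0.01 in GRPR-AngII. As library medians in log2 CPM, the 82 genes stood at 7.85 ± 0.20 for AngII, 7.84 ± 0.115 for CDH16KO-AngII and 7.99 ± 0.0838 for GRPR-AngII (SD, n = 3). Within groups these medians had an SD of 0.142, beside median log2 fold changes of 0.0954 and 0.128. The libraries overlapped. As a median deviation from each gene's mean over all libraries, GRPR-AngII 2 stood at −0.0774, below CDH16KO-AngII 2 (0.0805) and AngII 2 (0.113). GRPR-AngII 1 and 3 (0.1465 and 0.1255) lay above every library of the other groups. The genes share these libraries, so the numbers above 0 are not independent. Leaving out 1 library at a time, the median between the Cre-positive groups lay between 0.088 and 0.185.

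Some genes had groups whose CPM ranges did not overlap. In CDH16KO-AngII against AngII 0 subunit genes were higher (background 6.65%) and 6 lower (background 5.5%): Cox7c, Ndufa12, Uqcrb, Ndufb8, Ndufc2 and Cox6b2. GRPR-AngII against AngII had 0 higher (background 6.85%) and 2 lower (background 7.2%), Ndufa12 and Cox6b2. GRPR-AngII against CDH16KO-AngII had 6 higher (background 4.66%) and 0 lower (background 5.3%): Cox7c, Uqcrb, Atp5o, Ndufc2, Ndufa7 and Uqcr10.

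**Figure D2:**
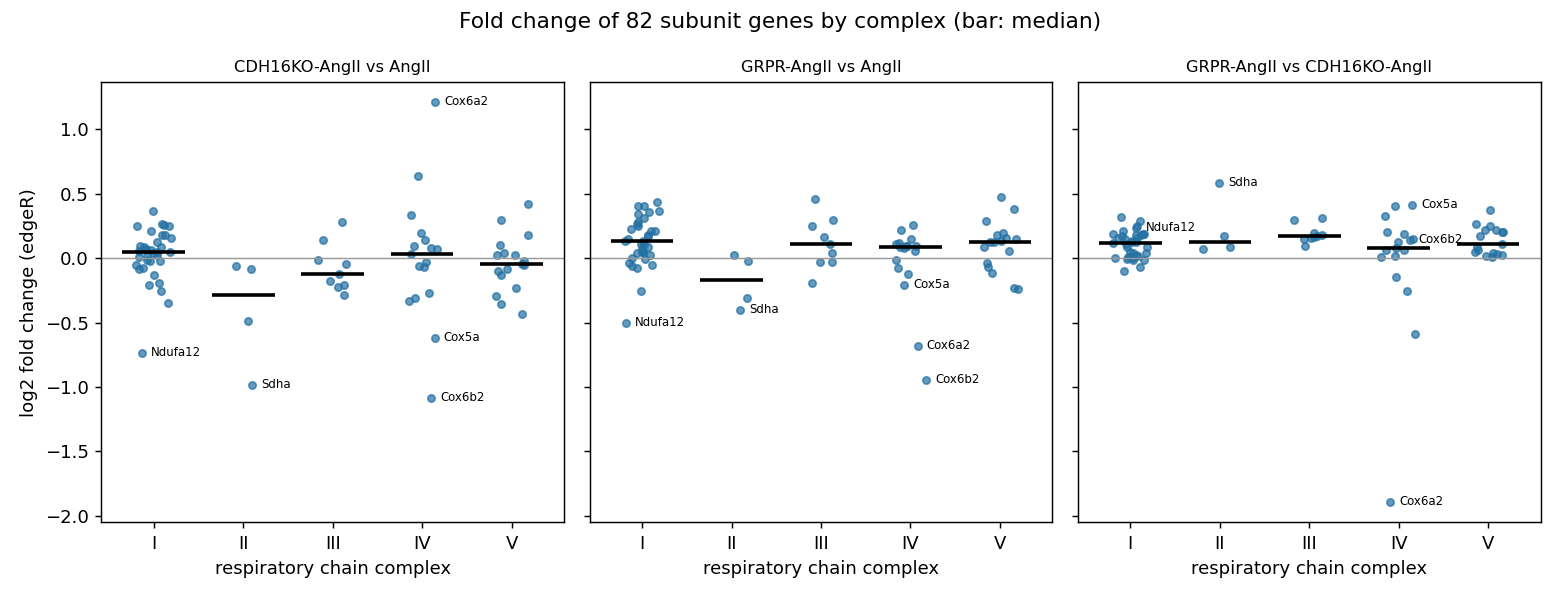
Log2 fold change (edgeR) of the 82 tested subunit genes in the 3 comparisons, 1 point per gene, by complex, with the median as a bar. The complex medians lie between −0.29 and 0.17, and Cox6b2, Sdha, Ndufa12, Cox5a and Cox6a2 lie farthest from them in at least 1 panel.

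Complex I, the entry point for NADH, is the largest group. Its median log2 fold change was 0.05 in CDH16KO-AngII against AngII, 0.13 in GRPR-AngII against AngII and 0.12 in GRPR-AngII against CDH16KO-AngII, over 35 genes. The 7 core genes that carry the flavin and the iron-sulfur clusters had medians of 0.02, 0.02 and 0.01. Ndufv1, the flavin subunit that takes electrons from NADH, stood at 64.1, 101 and 79.0 FPKM in the AngII libraries, 59.1, 95.4 and 51.9 in CDH16KO-AngII and 70.8, 84.8 and 64.6 in GRPR-AngII. Every group of Ndufv1 values overlapped the others. Against AngII, Ndufs1, which carries several of the clusters, gave −0.26 in the CDH16KO-AngII group (SE 0.167, edgeR adjusted p = 0.669) and −0.25 in GRPR-AngII (SE 0.167, edgeR adjusted p = 0.76). Ndufs3, Ndufs7, Ndufs8 and Ndufv2 lay between −0.10 and 0.25 in all 3 comparisons.

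Ndufa12 had the smallest p of complex I. It stood at 78.8, 76.3 and 68.4 FPKM in AngII, 44.95, 45.5 and 40.6 in CDH16KO-AngII and 60.5, 45.1 and 44.7 in GRPR-AngII. Both Cre-positive groups lay below all AngII libraries. The log2 fold change was −0.74 in CDH16KO-AngII (SE 0.152, edgeR adjusted p = 0.13) and −0.50 in GRPR-AngII (SE 0.151, edgeR adjusted p = 0.683). The copy moved the other way. Ndufa12-ps, named after its values were seen, rose in CDH16KO-AngII from 44.1 ± 3.10 to 86.6 ± 5.10 CPM (SD, n = 3; log2 fold change 0.97, SE 0.13, edgeR adjusted p = 0.0197). In GRPR-AngII it was at 89.1 ± 10.2 CPM (log2 fold change 1.01, SE 0.13, edgeR adjusted p = 0.107).

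The summed counts of Ndufa12 and its copy overlapped between groups. They came to 182 ± 12.4 CPM for AngII, 169 ± 4.65 for CDH16KO-AngII and 186 ± 17.9 for GRPR-AngII (SD, n = 3). The copy's part of that sum was 24.4% ± 3.14 for AngII, 51.2% ± 1.99 for CDH16KO-AngII and 48.05% ± 5.55 for GRPR-AngII (SD, n = 3). By library it took 21.1%, 24.7% and 27.4% in AngII, and between 41.7% and 52.5% in the 6 Cre-positive libraries, with no overlap. Fitted on the summed counts, an alternative chosen after seeing the data, the log2 fold change was −0.10 in CDH16KO-AngII (SE 0.13, edgeR adjusted p = 0.814) and 0.04 in GRPR-AngII (SE 0.13, edgeR adjusted p = 0.96). The sequences printed above differ at only 2 of 402 bases. The sources used here do not say how reads that match both were assigned, and what shifted the split was not tested.

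**Figure D3:**
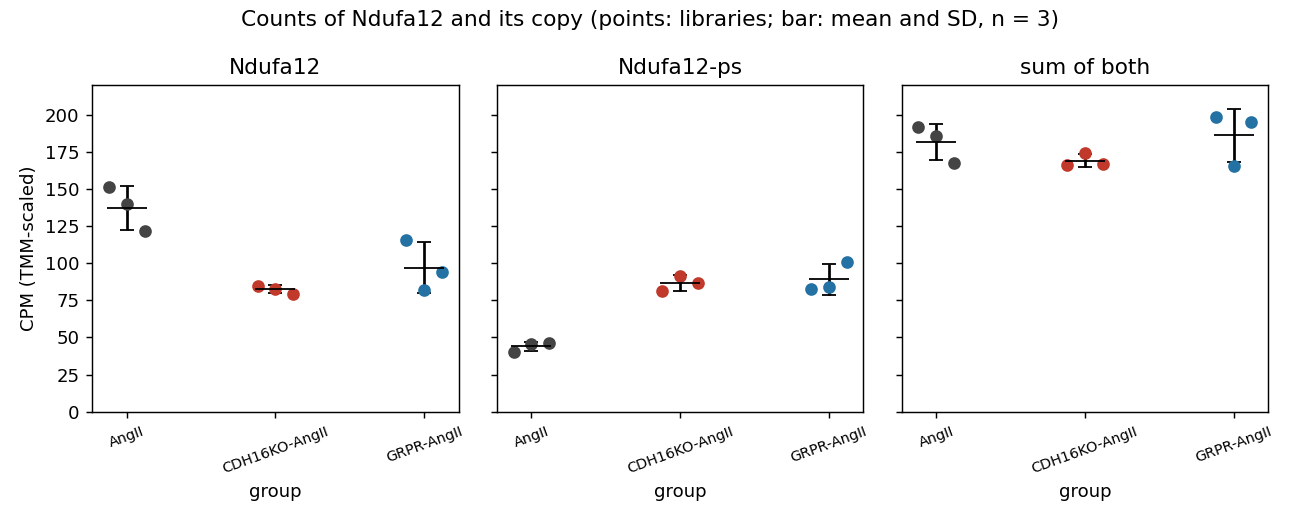
Counts of Ndufa12, its copy Ndufa12-ps and their sum in TMM-scaled CPM, with 1 point per library and a bar for the mean and SD of each group (n = 3). Ndufa12 is highest in AngII (137 CPM on average) and the copy is lowest there (44.1 CPM), while the sums lie between 166 and 198 CPM in all groups.

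Other accessory subunits of complex I varied with single libraries. Ndufc2, in the membrane arm, stood at 118, 155 and 130 FPKM in AngII, 113, 118 and 76.8 in CDH16KO-AngII and 136, 122 and 109 in GRPR-AngII. On the CPM scale its AngII and CDH16KO-AngII libraries did not overlap (log2 fold change −0.35, SE 0.169, edgeR adjusted p = 0.612). Ndufa13, Ndufb7, Ndufb2 and Ndufs6 were among the 8 smallest p for GRPR-AngII against AngII, with log2 fold changes of 0.44, 0.40, 0.37 and 0.27 and edgeR adjusted p from 0.732 to 0.747. In each of these 4 genes AngII 1 was the lowest library. Ndufa13, at 125 FPKM there, stood at 184 to 250 in the other 8. Without AngII 1 the 4 log2 fold changes were 0.26, 0.28, 0.15 and 0.13, each with an edgeR adjusted p of 0.999.

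Complex II, which oxidises succinate and is also part of the citrate cycle, had the lowest medians of the 5 complexes against AngII. Its 4 genes gave a median log2 fold change of −0.29 in CDH16KO-AngII and −0.17 in GRPR-AngII, and 0.13 between the Cre-positive groups. Sdha, the flavoprotein that binds succinate (chr13:74322254-74350280, minus strand), stood at 93.2, 109 and 65.2 FPKM in AngII. It stood at 33.4, 70.1 and 29.9 in CDH16KO-AngII and at 66.97, 81.03 and 47.5 in GRPR-AngII. CDH16KO-AngII 1 and 3 were low, and CDH16KO-AngII 2 lay within the AngII range.

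The fitted Sdha change in CDH16KO-AngII was −0.99 (SE 0.313, 95% interval −1.68 to −0.29, edgeR adjusted p = 0.403). Without CDH16KO-AngII 2, the high library, it was −1.43 (edgeR adjusted p = 0.0607). In that fit the share of all genes with an unadjusted p under 0.05 was also above that of the full fit. Leaving out the high library enlarges the difference by its choice, and leaving out a low one instead, CDH16KO-AngII 1 or 3, raises the group mean. The Sdha change in GRPR-AngII was −0.40 (SE 0.31, edgeR adjusted p = 0.787). Sdhd, a membrane anchor of the complex, was also highest in library 2 of each group, at 63.1, 115 and 53.4 FPKM in CDH16KO-AngII and 72.4, 122 and 61.5 in GRPR-AngII, beside 108, 130 and 89.8 in AngII. Its log2 fold change in CDH16KO-AngII was −0.49 (SE 0.289, edgeR adjusted p = 0.657). The iron-sulfur subunit Sdhb and the other anchor Sdhc gave −0.06 and −0.09. The difference between the 4 genes was not tested. The complex II median in CDH16KO-AngII was −0.55 without CDH16KO-AngII 2 and −0.17 without CDH16KO-AngII 3.

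Complex III passes electrons from ubiquinol to cytochrome c. Its 9 genes had median log2 fold changes of −0.12 in CDH16KO-AngII and 0.11 in GRPR-AngII against AngII, and all 9 lay above 0 in GRPR-AngII against CDH16KO-AngII (median 0.17). The catalytic pair, the Rieske protein Uqcrfs1 and cytochrome c1 (Cyc1), gave −0.18 and −0.23 in CDH16KO-AngII (edgeR adjusted p = 0.794 and 0.704). Uqcrb, which helps form the ubiquinone pocket, stood at 213, 253 and 242 FPKM in AngII, 193, 214 and 191 in CDH16KO-AngII and 264, 219 and 239 in GRPR-AngII. Its log2 fold change was −0.21 in CDH16KO-AngII against AngII (SE 0.138, edgeR adjusted p = 0.675) and 0.31 between the Cre-positive groups (SE 0.138, edgeR adjusted p = 0.772). Uqcrq (0.46, SE 0.217, edgeR adjusted p = 0.732 in GRPR-AngII against AngII) was again lowest in AngII 1, at 137 FPKM beside 193 to 266 elsewhere, and without that library it gave 0.30 (edgeR adjusted p = 0.999).

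Complex IV, cytochrome c oxidase, holds most of the tissue isoforms. Cox6b2, described as the testis form of subunit 6b (chr7:4751792-4753094, minus strand), had the smallest p of all subunit genes. It stood at 9.66, 10.06 and 11.7 FPKM in AngII, 5.59, 3.93 and 4.77 in CDH16KO-AngII and 4.32, 4.98 and 6.0 in GRPR-AngII. Both Cre-positive groups lay below every AngII library. The log2 fold change was −1.09 in CDH16KO-AngII (SE 0.218, edgeR adjusted p = 0.116, a 2.12-fold lower level) and −0.95 in GRPR-AngII (SE 0.217, edgeR adjusted p = 0.54). In CDH16KO-AngII DESeq2 gave −1.09 with an adjusted p of 0.000729, and limma gave −1.13 on log2(FPKM + 0.1) with an adjusted p of 0.0481, and an adjusted p of 0.0398 on log2(FPKM + 1). Its ubiquitous partner Cox6b1, at 339 to 515 FPKM, gave 0.03 and 0.10. The gene next to Cox6b2 within 10000 bases, the histone methyltransferase Kmt5c on the plus strand, gave 0.42 and 0.44 (edgeR adjusted p = 0.623 and 0.732).

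**Figure D4:**
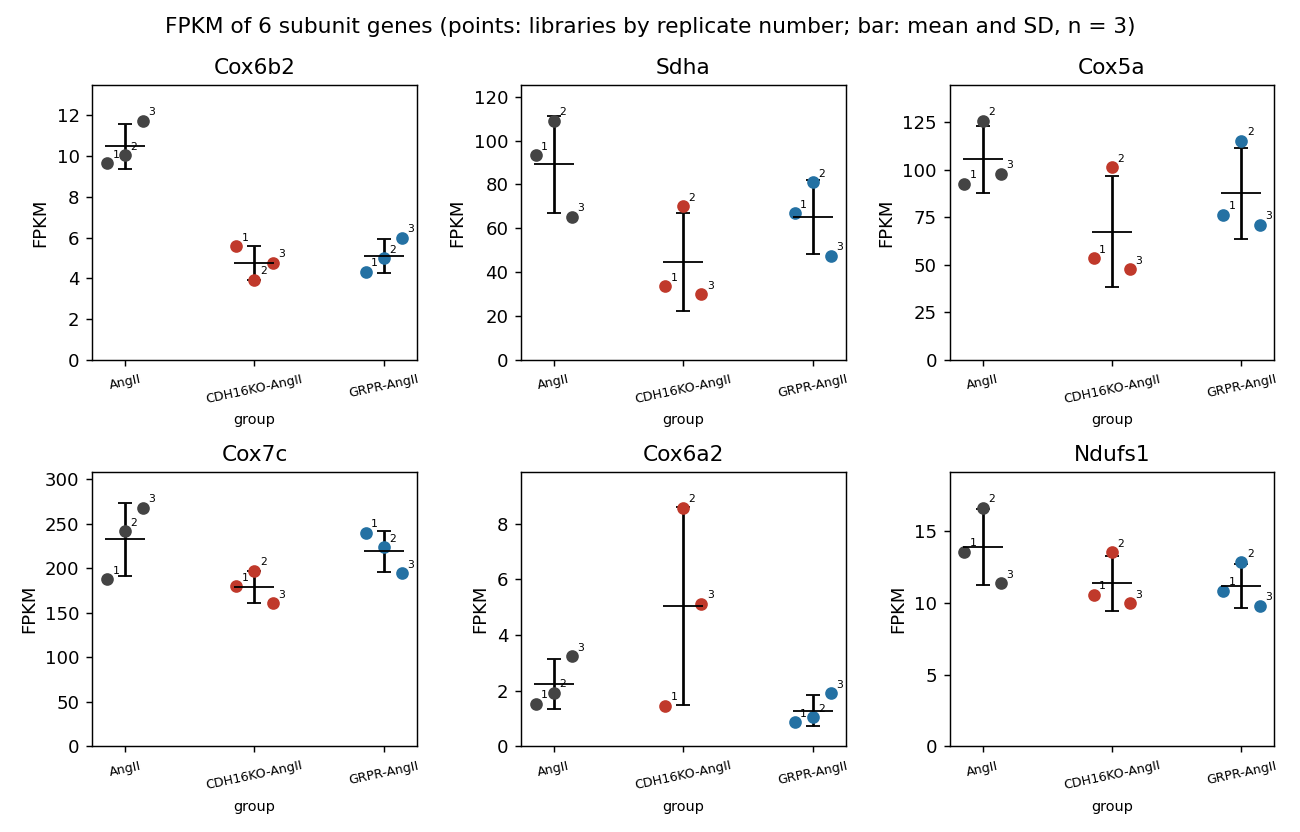
FPKM of Cox6b2, Sdha, Cox5a, Cox7c, Cox6a2 and Ndufs1 by group, with 1 point per library numbered by replicate and a bar for the mean and SD (n = 3); each axis starts at 0. Cox6b2 shows AngII (9.66 to 11.7) apart from both other groups (3.93 to 6.0), whereas the CDH16KO-AngII libraries of Sdha and Cox5a split into 1 high and 2 low points.

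Cox5a, a subunit without a tissue isoform (chr9:57521274-57532426, plus strand), again had 1 high and 2 low CDH16KO-AngII libraries. It stood at 92.7, 126 and 97.9 FPKM in AngII, 53.5, 101 and 47.7 in CDH16KO-AngII and 76.4, 115 and 71.1 in GRPR-AngII. The log2 fold change in CDH16KO-AngII was −0.62 (SE 0.263, edgeR adjusted p = 0.573). Without CDH16KO-AngII 2, the high library, it was −0.99 (edgeR adjusted p = 0.0649). That is the same fit as for Sdha, with the larger share of all genes at an unadjusted p under 0.05. Cox7c, a small membrane subunit, stood at 188, 242 and 268 FPKM in AngII, 180, 197 and 161 in CDH16KO-AngII and 240, 224 and 195 in GRPR-AngII. The first 2 groups overlap in FPKM and do not overlap in TMM-scaled CPM, and the log2 fold change was −0.34 (SE 0.146, edgeR adjusted p = 0.588).

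Muscle-type isoforms were low and uneven. Cox6a2, the heart and skeletal muscle form of subunit 6a, stood at 1.54, 1.93 and 3.25 FPKM in AngII, 1.46, 8.58 and 5.12 in CDH16KO-AngII and 0.88, 1.06 and 1.91 in GRPR-AngII. CDH16KO-AngII 2 and 3 were high and CDH16KO-AngII 1 lay within the range of the other groups. Its log2 fold change was 1.21 for CDH16KO-AngII against AngII (SE 0.571, edgeR adjusted p = 0.609) and 0.64 without CDH16KO-AngII 2. Between the Cre-positive groups it was −1.89 (SE 0.587, edgeR adjusted p = 0.438). Striated muscle markers summed to 0.51 to 0.84 FPKM in AngII, 0.98 to 1.28 in CDH16KO-AngII and 0.51 to 0.77 in GRPR-AngII over the 7 of 8 that had a row. Nearly all of that was Mylpf (0.45 to 1.27), while Myh4 was at 0 in every library and Ckm and Acta1 did not exceed 0.05. The part of muscle RNA in Cox6a2 was not tested. Exons of Itgad overlap 10.3% of Cox6a2 on the opposite strand, and no source used here says whether counting used strand.

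Other isoform pairs kept their order in all groups. Cox6a1, Cox8a and Cox4i1 were at 919 to 1054, 771 to 898 and 415 to 573 FPKM. The hypoxia-linked forms Cox4i2 and Ndufa4l2 were at 0.42 to 1.58 and 1.46 to 3.67. Cox7a1, the muscle form of subunit 7a, was at 13.0 FPKM in AngII 1 and at 18.96 to 32.2 in the other 8 libraries, below its liver-type partner Cox7a2 at 115 to 225. Fat markers summed to 0 to 0.38 FPKM over 5 of 7 genes with a row. Ndufa4, now counted as a complex IV subunit, gave −0.31 in CDH16KO-AngII (edgeR adjusted p = 0.705) and 0.40 between the Cre-positive groups (edgeR adjusted p = 0.913). Cox7a2l, which links complexes III and IV, and Cox7b lay between −0.27 and 0.15 in all 3 comparisons.

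Complex V makes ATP. Its 17 genes had median log2 fold changes of −0.05 and 0.13 against AngII, and all 17 lay above 0 in GRPR-AngII against CDH16KO-AngII (median 0.11, range 0.01 to 0.38). Without GRPR-AngII 1 that number was 11, and without CDH16KO-AngII 3 it was 12. The catalytic beta subunit Atp5b stood at 341, 372 and 211 FPKM in AngII, 172, 318 and 185 in CDH16KO-AngII and 229, 330 and 199.6 in GRPR-AngII. The alpha subunit Atp5a1 followed it, at 346, 408 and 255, then 246, 384 and 183, then 264, 349 and 209.6. In both genes library 2 was the highest library of each group. The log2 fold changes in CDH16KO-AngII were −0.43 (SE 0.287, edgeR adjusted p = 0.669) and −0.29 (SE 0.274, edgeR adjusted p = 0.755).

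Other subunits of complex V differed widely in their spread. Atp5e, the epsilon subunit of the central stalk, had the widest range of the complex, 3.56-fold between its lowest and highest library on the CPM scale. It stood at 63.4 FPKM in AngII 1 and at 137 to 228 in the other 8. Of the 3 genes that code the same c-ring protein, Atp5g3 was the most abundant at 149 to 318 FPKM, beside 42.7 to 70.5 for Atp5g1 and 56.3 to 84.2 for Atp5g2. None of the 3 exceeded a log2 fold change of 0.38 in either direction.

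The subunit genes did not vary as 1 block over the 9 libraries. Correlations over libraries are given as descriptions only; the points share library depth and composition. Cox4i1 correlated at 0.961 with the median of the other subunit genes, and 33 of 82 genes exceeded 0.7. A second set of 16 genes correlated above 0.7 with the mean of 14 citrate cycle genes, among them Uqcrc2 (0.99), Atp5b (0.958), Ndufs1 (0.951), Atp5a1 (0.926), Sdha (0.902), Sdhd (0.895) and Cox5a (0.835). Several of these had almost no correlation with the median of the other subunit genes, for example Atp5b (−0.055), Ndufs1 (0.005) and Sdhd (0.008). Ndufa4l2 and Ndufb7 ran opposite to the citrate cycle genes (−0.761 and −0.806). The cuts were chosen after seeing the values. The sets also differed in length. Of the genes named for the second set, all but Cox5a (645 bases) have principal transcripts of 1231 (Sdhd) to 2900 (Sdha) bases. AngII 1 was low for subunit genes under 600 bases (median deviation −0.313) and not for those of 2000 or more (0.0075). Long transcripts occurred in the first set too, such as Atp5g1 (4715 bases, 0.856). The part of length or of that library in the 2 sets was not tested.

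Markers of the proximal tubule moved with Sdha and Cox5a in the CDH16KO-AngII libraries. Their mean deviation from the 9-library mean was −0.376 and −0.327 (log2 CPM) in CDH16KO-AngII 1 and 3 and 0.231 in CDH16KO-AngII 2, the same libraries that were low and high for Sdha and Cox5a. In AngII it was 0.149, 0.135 and −0.0602, and in GRPR-AngII 0.0373, 0.0905 and 0.12. Within GRPR-AngII the order did not match, since Sdha was lowest in library 3, where the markers were highest. Over all 9 libraries Sdha correlated at 0.856 with these markers and Cox5a at 0.861. In bulk RNA, fewer cells of a type and less RNA per cell cannot be told apart, and the part of the tubule markers in these values was not tested.

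**Figure D5:**
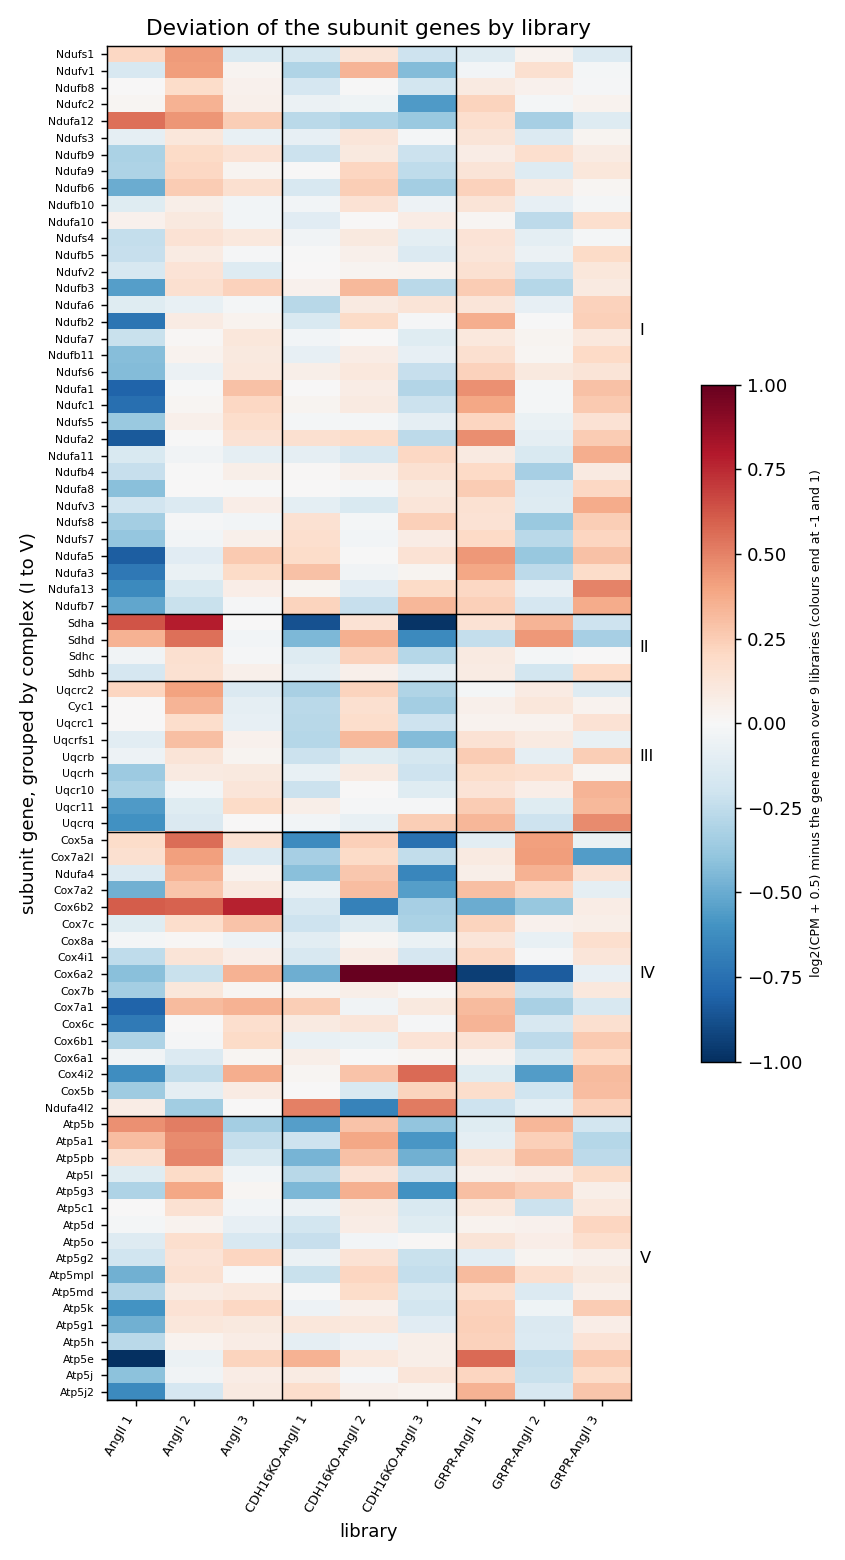
Deviation of the tested subunit genes reported by name, each from its own 9-library mean in log2(CPM + 0.5), with libraries as columns, genes as rows grouped by complex, and within each complex ordered from high to low correlation with the citrate cycle genes; red is above and blue below the mean. AngII 1 is blue in most rows, while Sdha, Sdhd, Cox5a, Atp5b and Atp5a1 are red in AngII 2 and blue in CDH16KO-AngII 1 and 3.

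Transcript length ran along with the log2 fold changes of GRPR-AngII against AngII. Against AngII, the 19 subunit genes with a principal transcript under 600 bases had a median log2 fold change of 0.17, the 30 from 600 to under 1000 bases 0.12, the 25 from 1000 to under 2000 bases 0.02 and the 8 of at least 2000 bases −0.04. The other genes tested had medians of 0.22, 0.12, 0.01 and −0.03 in the same bins. As differences of mean log2 CPM, the 4 medians of the subunit genes were 0.18, 0.14, 0.02 and −0.04 with all libraries and 0.09, −0.0031, −0.06 and −0.06 without AngII 1. In AngII 1 the median deviation of subunit genes was −0.313 under 600 bases and −0.363 from 600 to under 1000 bases, but 0.0075 at 2000 bases or more. Cytosolic ribosomal proteins, which are also short, had a median of 0.20 in GRPR-AngII against AngII with 80 of 90 above 0, and 0.09 with 67 above 0 without AngII 1. In GRPR-AngII against CDH16KO-AngII the subunit medians did not fall steadily with length, at 0.16, 0.09, 0.15 and 0.04 in the 4 bins. The other genes tested had 0.06, 0.07, 0.01 and −0.02. What these steps and median differences come from was not tested.

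Genes around the chain were read from lists of known pathway members. No gene of these 5 lists passed the edgeR threshold in any comparison. At an unadjusted p under 0.05 the electron carriers and feeders had 5, 1 and 2 of 25 (all genes tested 8.45%, 6.74% and 6.24%). The assembly factors had 0, 2 and 0 of 51 tested. The 14 citrate cycle genes had a median of −0.21 in CDH16KO-AngII and −0.17 in GRPR-AngII against AngII, with 13 of 14 below 0 in both (all genes tested 51.9% and 49% above 0). The libraries overlapped, since the mean deviation (log2 CPM) of these genes was 0.225, 0.322 and −0.144 in AngII, −0.257, 0.188 and −0.253 in CDH16KO-AngII, and −0.0445, 0.0316 and −0.0685 in GRPR-AngII. AngII 3 lay below every GRPR-AngII library. Without AngII 2 the medians were −0.14 and −0.08, and without AngII 3 they were −0.34 and −0.29. Without CDH16KO-AngII 2 the first was −0.35. The 13 subunits coded by mitochondrial DNA had medians of 0.29 and 0.25, with 13 of 13 above 0 in both (all genes tested 51.9% and 49%), and −0.0013 between the Cre-positive groups. They are transcribed from 1 molecule and are not independent of each other. Their mean deviation (log2 CPM) was 0.139, −0.283 and −0.331 in the AngII libraries, 0.168, −0.389 and 0.461 in CDH16KO-AngII, and −0.106, −0.103 and 0.443 in GRPR-AngII. CDH16KO-AngII 2 was thus the lowest of the 9. Without CDH16KO-AngII 3 the first median was 0.08, and without GRPR-AngII 3 the second was 0.07, with 9 of 13 above 0 in each. Of these, mt-Nd3 had the smallest p in both comparisons (0.33 and 0.35, edgeR adjusted p = 0.7 and 0.778).

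Assembly factors stayed near the background, with medians of 0.02, 0.07 and 0.03 over 51 tested genes. Nubpl, which delivers iron-sulfur clusters to complex I, gave −0.89 in GRPR-AngII against AngII (SE 0.385, edgeR adjusted p = 0.732), and Cox10, needed for the heme of complex IV, gave 0.33 and 0.37 against AngII (edgeR adjusted p = 0.61 and 0.732). Of 25 genes for electron carriers and feeders, Coq7, an enzyme of ubiquinone synthesis, gave −0.34 in CDH16KO-AngII against AngII (SE 0.127, edgeR adjusted p = 0.497). It gave 0.43 in GRPR-AngII against CDH16KO-AngII (SE 0.127, edgeR adjusted p = 0.362). The median of that list was −0.13, −0.05 and 0.14.

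Regulators of mitochondrial gene expression did not pass either. Esrra, a nuclear receptor that acts on many of these genes, gave 0.36 in CDH16KO-AngII and 0.44 in GRPR-AngII against AngII (SE 0.137 in both, edgeR adjusted p = 0.526 and 0.685). The coactivator Ppargc1a gave 0.11 and −0.20 (edgeR adjusted p = 0.873 and 0.839). Nrf1 gave 0.26 and 0.17, Gabpa −0.45 and −0.67, and Tfam, which packages mitochondrial DNA, −0.10 and −0.19, with edgeR adjusted p between 0.669 and 0.869. The median over 19 regulators was 0.01 and −0.14.

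Copies and overlaps limit some of the values above. Of the 84 genes, 23 have at least 1 near-identical gene in GENCODE M21, and 39 of those 43 genes are pseudogenes. For Ndufb9 it is Gm49356, a protein-coding gene model that overlaps Ndufb9 on the same strand and is not a copy elsewhere. In 10 subunit genes the copies held over 5% of the member's own counts. After Ndufa12 (69.3%) these were led by Atp5l (Gm10221, 23.0%), Atp5g1 (Gm10039, 20.7%), Uqcr11 (Gm16418, 18.2%) and Atp5h (Gm10250, 15.6%). Exons of 27 genes overlap a gene on the opposite strand, up to 39% of Ndufb6 (Smim27) and 30% of Ndufa13 (Tssk6). Over the 59 tested genes with no near-identical gene, a set that also leaves out Ndufb9, the medians were −0.02, 0.10 and 0.12, close to those of all 82.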

How the data were processed

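Kidney RNA was profiled by RNA-seq in 9 libraries, 3 per group, made from total RNA with a Qiagen RNeasy kit and a SMARTER mRNA-Seq kit, per the labels' protocols. The submitters' processing notes name the builds GRCm38 and mm10. The aligner, counter and strand setting were not given in the sources used here. The FPKM values were deposited by the authors beside counts in 1 table. The counts deposited by the authors are whole numbers and were handled as estimated counts, also called expected counts, that had been rounded.

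The main test was the quasi-likelihood test of edgeR 4.0.16 (R 4.3.3), scaled by TMM on column totals, with all 9 libraries in 1 fit and without a block. The filter kept 12507 genes that reached an FPKM of 1 in 3 or more libraries, with Benjamini-Hochberg adjustment over all of them and a threshold of 0.05. Each SE is the log2 fold change over the root of F. The fit was tested on simulated data. Replicates differed far beyond sampling noise (chi-square per gene 54.0 to 248), so none was counted as a copy. Correlations over libraries used log2(CPM + 0.5). Near-identical genes were found with BLAST+ 2.17.0 at 95% identity over 50% of either transcript. Promoters are RefSeq's (GRCm38.p6). Transcripts and coordinates are from GENCODE M21 (GRCm38), where 71 of the 84 genes had the deposited coordinates.

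Named genes were the 8 smallest p per comparison, the most and least abundant gene of each complex, complex II, tissue isoforms, core and catalytic subunits, and from each pathway list the 2 smallest p plus 5 fixed regulators. The members and lists were chosen with earlier results of these data known. Alternatives were other scalings, filters, tools (DESeq2 1.42.0, limma 3.58.1), a replicate block, fits of 2 groups and leaving out each library. Protein sequences were not used here. The values of some genes named by this rule are not reported here, and they remain in the counts and medians.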

Additional observations from a re-analysis of the deposited data

How the results depend on the processing

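The count of subunit genes called by edgeR was 0 in all 3 comparisons under every scaling and filter tried, with the replicate block, in fits of 2 groups only, after summing copies, and without any 1 library (0 to 0). It changed with the tool. In CDH16KO-AngII against AngII DESeq2 called 2 (Cox6b2 and Ndufa12), and limma called 1 (Cox6b2) on log2(FPKM + 1) and 1 (Cox6b2) on log2(FPKM + 0.1). In GRPR-AngII against AngII DESeq2 called 1 (Cox6b2) and limma 0. The cause was not tested. Over all genes DESeq2 called 210, 45 and 175 and limma on log2(FPKM + 1) called 25, 0 and 17, where edgeR called 21, 0 and 18.

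Leaving out 1 library moved the calls over all genes to 0 to 32, 0 to 2 and 0 to 38. In the first comparison 0 genes were called without AngII 1 and 3 without AngII 2 or without CDH16KO-AngII 3. In the third 0 were called without GRPR-AngII 1, and 41 with no filter. The medians of the subunit genes ranged from −0.116 to 0.0622, −0.0089 to 0.169 and 0.088 to 0.185 over libraries left out. Without CDH16KO-AngII 2 the subunit genes with an unadjusted p under 0.05 were 18 of 82 in the first comparison (19.8% of all genes in that fit) and 14 in the third (13%), and without AngII 3 they were 12 in the second (10.6%).

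Ndufa12 in GRPR-AngII against AngII turned from −0.50 to 0.0362 when summed with its copy, a fit that adds the copy's counts to its own. With the replicate block 0 subunit genes were called in each comparison, and 26, 0 and 13 genes over all. In their deviations from group means, same-numbered libraries correlated at −0.122 to 0.091 for number 1 and at 0.134 to 0.298 for numbers 2 and 3, while libraries 2 and 3 of different groups correlated at −0.326 to −0.112. Not every library correlated best with its own number (AngII 1 did so with GRPR-AngII 2), and nothing in the labels ties the numbers to animals or batches, so they were not used as pairs. Cox8b and Cox7b2 were too low for the filter, so no difference in them was detectable.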
